A study of Gossypium hirsutum with 63 samples.

Results

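The 164 genes described here were the rows of the deposited cotton FPKM table whose description held the word ethylene, ACC oxidase, ACC synthase or 1-aminocyclopropane in any case, without the word Integrase-type, out of 80325 genes in the table. FPKM, the fragments of a gene scaled to transcript length and to the mapped fragments of the library, was the expression level used throughout. The search also took in 10 genes through the letters of "methylene": 4 methylenetetrahydrofolate reductase 2 genes and 6 genes of the methylenetetrahydrofolate reductase family. The remaining 154 had an ethylene or ACC name, and fell into 16 ACC synthases, 17 ACC oxidases, 12 ethylene receptors, 10 EIN3-like genes, 94 ethylene response factors (ERFs) and 5 other genes.

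Upland cotton (Gossypium hirsutum) was sampled in 7 genotypes and 3 tissues with 3 replicates, giving 63 RNA-seq libraries. The H-hybrid (SJ48x98-15), M-hybrid (SJ48x51-2) and L-hybrid (SJ48xT-8), with high, medium and low yield heterosis, shared the maternal inbred A (SJ48), and their paternal inbreds were B (Z98-15) for H, C (851-2) for M and D (DT-8) for L. The names are spelled as in the sample labels, which shorten the paternal part of the crosses. Ovules were taken 1 day post anthesis (DPA), and leaf and flower buds at the squaring stage, from plants grown in the field. Leaves of different plants, and flower buds of several sizes, were pooled within a sample, and ovules came from tagged flowers of random plants. The spread behind each p-value is that between such samples, and because these are whole tissues, fewer cells of a type and less RNA per cell cannot be told apart.

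Ethylene is a gaseous plant hormone. Methionine is converted to S-adenosylmethionine, ACC synthase turns this into 1-aminocyclopropane-1-carboxylic acid (ACC), and ACC oxidase turns ACC into ethylene. Ethylene switches off its receptors in the endoplasmic reticulum, which otherwise keep the pathway silent, so that the transcription factor EIN3 and its relatives are no longer degraded and activate ERF genes. In cotton, ethylene is known to promote the elongation of fiber cells on the ovule surface. No sequence of these genes was used here.

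The tissue labels were checked against marker genes. The leaf list held 38 genes with light harvesting or Rubisco small subunit in their descriptions. Their summed level was 23.2 to 43.6 FPKM in ovule, 2604 to 4463 FPKM in leaf and 183 to 283 FPKM in flower buds. A list of 75 anther and pollen genes was not particular to buds, with sums of 278 to 720 FPKM in ovule, 346 to 955 FPKM in leaf and 390 to 2932 FPKM in flower buds. The search for petal and stamen identity genes matched 0 rows. The ovule list matched only 36 BEL1-like genes, whose sums were lower in ovule (59.0 to 71.6 FPKM) than in leaf (231 to 326 FPKM) or buds (117 to 163 FPKM), so the ovule label could not be checked by defining markers. In ovule, replicates 2 and 3 of L stood apart: their log2 profiles correlated with those of the other 19 ovule libraries at r = 0.784 to 0.825, while the other 19 correlated with each other at 0.905 to 0.947. The anther and pollen list summed to 720 and 697 FPKM in these L libraries, against 278 to 353 FPKM in the other 19. Calls of L against its parents in ovule are therefore given with and without them.

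Of the 164 genes, 105 exceeded 0.5 FPKM in at least 1 library, 59 never did, and 3 of those were listed at 0 in all 63 libraries. A mean above 1 FPKM over all libraries was reached by 49. That mean was exceeded by 8 of 16 ACC synthases, 12 of 17 ACC oxidases, 8 of 12 receptors and 5 of 10 EIN3-like genes, and by 5 of 94 ERFs. ERF genes with an Integrase-type description were left out by the rule, so this is no share for the whole ERF family. By gene name, 78 members lay in the At subgenome, 80 in the Dt subgenome and 6 on unplaced scaffolds. The sources do not say how reads shared by near-identical copies, from both subgenomes or in tandem, were divided, so levels of such copies are uncertain.

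**Figure D1:**
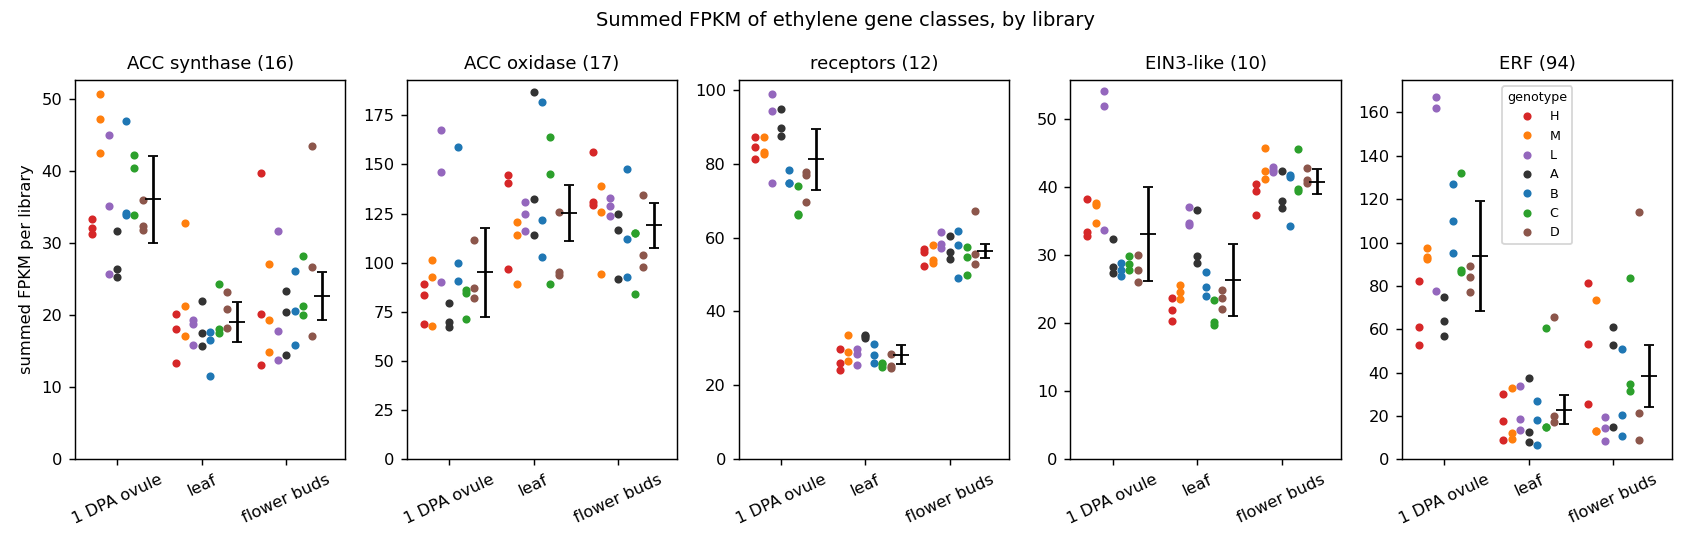
Summed FPKM of 5 ethylene gene classes, 1 point per library (y axis), in 1 DPA ovule, leaf and flower buds (x axis), coloured by genotype, with 3 libraries per genotype and tissue. Receptor sums lay between 66.04 and 99.0 FPKM in ovule and between 24.2 and 33.7 FPKM in leaf, and ERF sums reached 167 FPKM in ovule.

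The first question was how the ethylene genes differed among tissues. A gene was called at an adjusted p under 0.05 and a difference above 1 or below -1 on the log2(FPKM + 1) scale, averaged over the 7 genotypes, by limma with Benjamini-Hochberg adjustment over 68947 genes. On this scale, changes of genes with low FPKM are understated. Of the 105 genes tested, 15 rose and 7 fell in ovule relative to leaf, where 9.84% of all genes tested rose and 9.08% fell. In ovule relative to flower buds, 8 rose and 3 fell (3.58% and 7.13% of all genes). In leaf relative to flower buds, 6 rose and 13 fell (6.05% and 8.09% of all genes). The median difference of the 105 genes was 0.06 for ovule minus leaf, against 0.11 over all genes, 0.01 for ovule minus buds, against -0.00, and -0.07 for leaf minus buds, against -0.14. In all, 28 genes were called in at least 1 tissue comparison, 25 of them with ethylene or ACC names. Each called difference had the same direction in 7 of 7 genotypes, which a call on the mean over genotypes favours. These counts, and the ranges without overlap given below, were not taken over all genes, so they show nothing particular to ethylene genes.

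The first enzyme of ethylene synthesis, ACC synthase, was led in ovule by a pair of ACC synthase 6 genes, one on each of the chromosomes A12 and D12. Gh_A12G2673 had 8.12, 12.7 and 21.8 FPKM (lowest, median and highest of 21 libraries) in ovule, 0.0732, 0.620 and 4.29 FPKM in leaf, and 0.576, 1.98 and 16.6 FPKM in flower buds. Gh_D12G2746 had 4.61, 10.9 and 16.1 FPKM in ovule, 0.0108, 0.245 and 1.83 FPKM in leaf, and 0.239, 1.20 and 7.33 FPKM in flower buds. Every ovule library lay above every leaf library for both genes, while the ranges of ovule and buds overlapped. Both rose in ovule relative to leaf, by 3.02 (SE 0.24, adjusted p = 8.79e-16) for Gh_A12G2673 and by 3.02 (SE 0.19, adjusted p = 2.11e-19) for Gh_D12G2746. They also rose in ovule relative to flower buds, by 1.75 (adjusted p = 1.25e-08) and 1.97 (adjusted p = 8e-13). In leaf relative to buds they fell by 1.27 and 1.05. Together they made up 66.5% of the summed FPKM of the 16 genes named ACC synthase in ovule.

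The other ACC synthases had lower medians than this pair in ovule, though they were not lower in every library. Gh_A12G2038 was named ACC synthase 10, whose Arabidopsis counterpart acts as an aminotransferase and not as an ACC synthase. It had 0.120, 0.586 and 0.816 FPKM in ovule, 0.739, 2.34 and 4.10 FPKM in leaf, and 0.279, 1.17 and 2.50 FPKM in flower buds, and it fell in ovule relative to leaf by 1.15 (SE 0.12, adjusted p = 1.16e-11), with some overlap. The other 3 ACC synthase 10 genes (Gh_A08G1581, Gh_D08G1888, Gh_D12G2216) and the ACC synthase 6 genes Gh_A02G1046 and Gh_D03G0678 had tissue medians of 1.30 to 3.96 FPKM and were not called. The 4 ACC synthase 1 genes never exceeded 0.547 FPKM. The 16 genes summed to 36.1 ± 6.04 FPKM in ovule, 19.0 ± 2.73 FPKM in leaf and 22.6 ± 3.30 FPKM in flower buds (SD of 7 genotype means). Of the 11 tested, 2 rose and 1 fell in ovule relative to leaf. These sums include the 4 ACC synthase 10 genes, whose enzyme activity was not tested, so they are no level of ACC synthase alone. In leaf the largest shares were those of the ACC synthase 10 genes Gh_A08G1581 (23.7%) and Gh_D08G1888 (16.1%).

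For ACC oxidase, the last enzyme, the leading gene was the same in ovule and leaf and another in flower buds. Of the 17 genes, 16 were tested, and 3 rose and 3 fell in ovule relative to leaf, 1 rose and 2 fell in ovule relative to buds, and 3 rose and 3 fell in leaf relative to buds. Gh_A08G0460 was the leading gene of ovule and leaf. It had 17.1, 32.7 and 76.8 FPKM in ovule, 35.7, 40.1 and 70.9 FPKM in leaf, and 4.39, 6.04 and 10.2 FPKM in flower buds. Neither ovule nor leaf overlapped with buds, and the gene rose relative to buds by 2.19 (SE 0.08, adjusted p = 9.4e-29) in ovule and by 2.60 (SE 0.08, adjusted p = 6.1e-32) in leaf. Gh_D08G0546 was high in leaf only. It had 6.72, 8.63 and 18.5 FPKM in ovule, 23.9, 35.8 and 56.5 FPKM in leaf, and 5.74, 9.87 and 23.6 FPKM in flower buds. It fell in ovule relative to leaf by 1.86 (adjusted p = 1.6e-18) and rose in leaf relative to buds by 1.67 (adjusted p = 1.03e-16), and the leaf range touched neither of the others.

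Gh_A06G1341 was the leading ACC oxidase of flower buds. It had 0.764, 3.17 and 12.1 FPKM in ovule, 0.0933, 0.425 and 1.08 FPKM in leaf, and 18.6, 35.0 and 51.5 FPKM in flower buds. No ovule or leaf library reached the lowest bud library. The gene fell relative to buds by 3.13 in ovule (adjusted p = 1.28e-28) and by 4.62 in leaf (SE 0.11, adjusted p = 1.18e-35), the largest tissue difference among the ethylene-named genes, and rose in ovule relative to leaf by 1.49 (adjusted p = 6.83e-17). It made up 30.4% of the summed ACC oxidase FPKM in buds, while Gh_A08G0460 made up 35.8% in ovule and 35.1% in leaf, where Gh_D08G0546 added 30.3%. The class sum differed less than its members, with 95.04 ± 22.5 FPKM in ovule, 125 ± 14.4 FPKM in leaf and 119 ± 11.6 FPKM in buds.

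Several lower ACC oxidases were also called. The merged locus Gh_D07G0841/Gh_D07G0842, 1 assembled locus with 2 gene names, had 1.41, 3.22 and 17.9 FPKM in ovule, 0.0535, 0.170 and 0.851 FPKM in leaf, and 1.80, 3.98 and 10.6 FPKM in flower buds. It rose in ovule relative to leaf by 2.15 (SE 0.14, adjusted p = 5.82e-19) and fell in leaf relative to buds by 2.13, with no overlap in either case. Gh_D06G1674 was the gene that was low in ovule only, with a median of 0.339 FPKM in ovule, 3.34 FPKM in leaf and 3.51 FPKM in buds. It fell in ovule by 1.59 relative to leaf and by 1.73 relative to buds. Gh_D11G1565 had its highest median in leaf, with 0.479 FPKM in ovule, 3.18 FPKM in leaf and 0.524 FPKM in buds, and fell in ovule relative to leaf by 1.53. Gh_D05G1663 fell in leaf relative to buds by 1.63, with medians of 7.57 FPKM in ovule, 4.17 FPKM in leaf and 14.6 FPKM in buds.

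The rise of the ACC oxidase Gh_A07G0773 in ovule relative to leaf was 1.33 (SE 0.23, adjusted p = 1.94e-06). Without L replicates 2 and 3 it was 0.94, under the fold limit (adjusted p = 2.75e-05). The remaining ACC oxidases, among them the 2 genes named ACC oxidase 1 (Gh_A07G0098 and Gh_D07G0107) with tissue medians of 2.71 to 7.0 FPKM, were not called in any tissue comparison.

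**Figure D2:**
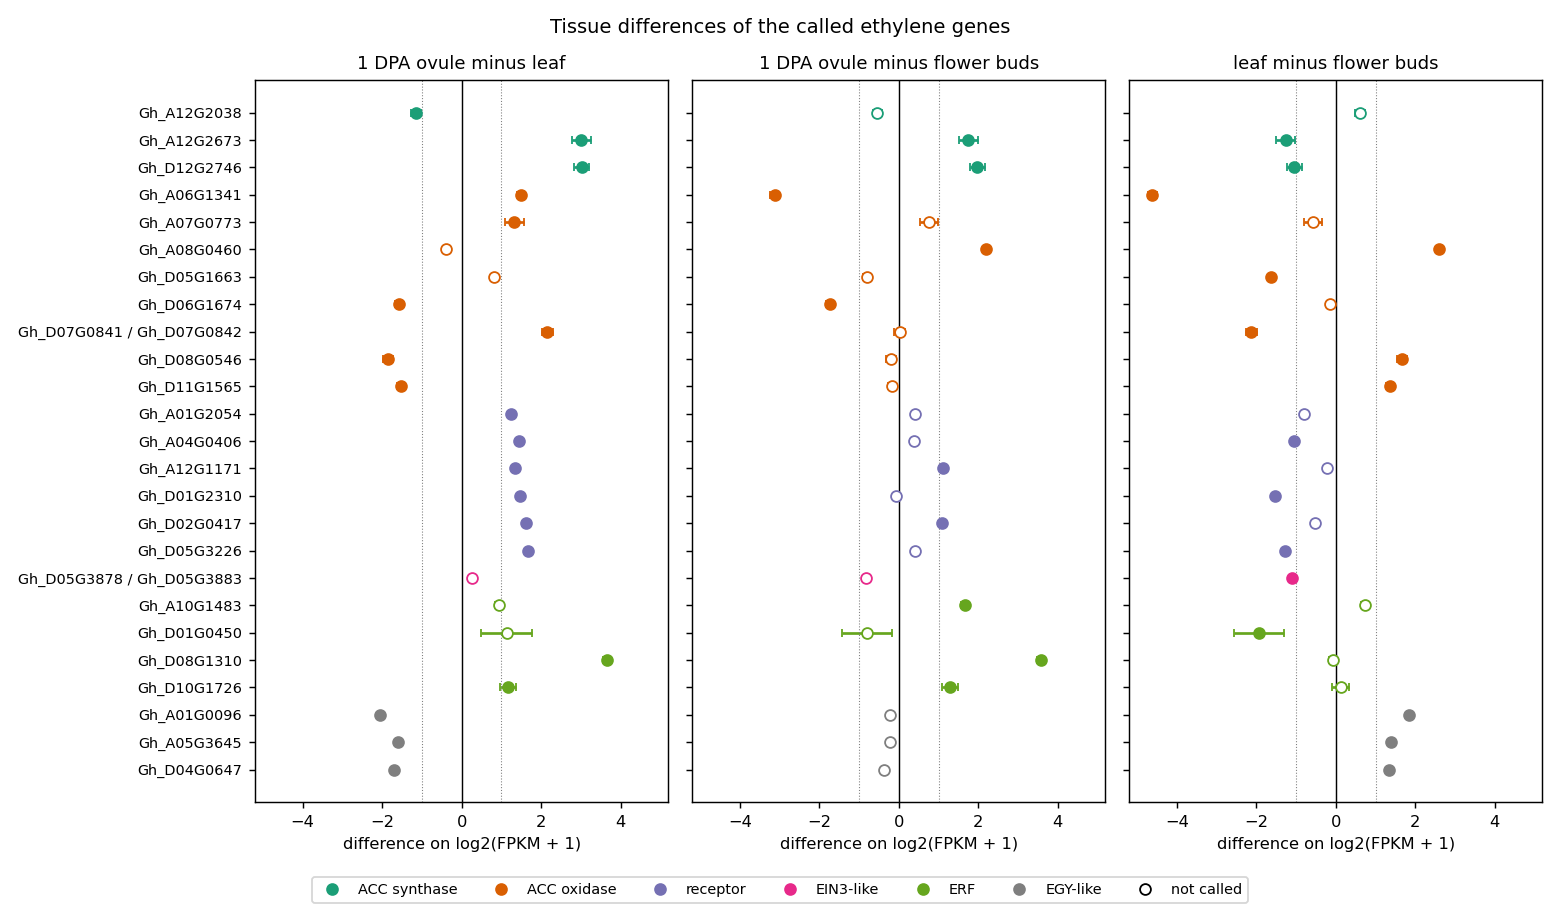
Differences on log2(FPKM + 1) (x axis) with SE for the 25 called genes with ethylene or ACC names (y axis), coloured by class, for ovule minus leaf, ovule minus flower buds and leaf minus flower buds, where filled points were called, open points were not and dotted lines mark -1 and 1. The 6 receptors shown sit to the right in ovule minus leaf (1.23 to 1.67), whereas ACC oxidases lie on both sides of 0, with Gh_A06G1341 at -4.62 in leaf minus buds.

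The receptors, which are histidine kinase-like proteins that bind ethylene, were higher in ovule than in leaf wherever they were called. Of 12 genes, 8 were hybrid-type ethylene sensors, which carry a receiver domain, and 4 were ethylene response sensor 1 (ERS1) genes, which lack it. Of the 10 tested, 6 rose and none fell in ovule relative to leaf, 2 rose in ovule relative to buds, and 3 fell in leaf relative to buds. Their median differences were 1.28 for ovule minus leaf, 0.39 for ovule minus buds and -0.57 for leaf minus buds, against 0.11, -0.00 and -0.14 over all genes.

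The 6 that rose in ovule relative to leaf were Gh_A01G2054, Gh_A04G0406, Gh_A12G1171, Gh_D01G2310, Gh_D02G0417 and Gh_D05G3226. Their differences were 1.23, 1.44, 1.33, 1.46, 1.61 and 1.67 in that order, with adjusted p of 5.74e-32 to 2.15e-25, and the ovule and leaf ranges did not overlap for any of them. Gh_D05G3226, with the largest difference, had 9.43, 12.2 and 15.8 FPKM in ovule, 2.08, 3.40 and 4.19 FPKM in leaf, and 7.40, 9.37 and 10.7 FPKM in flower buds. Gh_A01G2054, the most abundant receptor in ovule, had 9.05, 14.8 and 18.6 FPKM in ovule, 4.24, 5.61 and 6.69 FPKM in leaf, and 7.98, 10.5 and 12.04 FPKM in buds. Gh_A11G1025 and Gh_D12G1291 were also higher in all ovule than in all leaf libraries, but their differences of 0.98 and 0.86 were under the fold limit. Those 8 genes had a higher mean in ovule than in leaf in 7 of 7 genotypes each.

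Flower buds lay between ovule and leaf for most receptors. The order ovule, buds, leaf held in 7 of 7 genotypes for 6 of the 8 genes and in 6 of 7 for Gh_A12G1171. For Gh_D01G2310 it held in 3 of 7: this gene had 4.88, 6.70 and 9.52 FPKM in ovule, 1.32, 1.85 and 2.52 FPKM in leaf, and 5.73, 6.96 and 9.52 FPKM in buds. In ovule relative to buds, Gh_A12G1171 rose by 1.11 and Gh_D02G0417 by 1.09. In leaf relative to buds, Gh_A04G0406 fell by 1.06, Gh_D01G2310 by 1.53 and Gh_D05G3226 by 1.27. The receptors summed to 81.1 ± 8.15 FPKM in ovule, 28.3 ± 2.62 FPKM in leaf and 56.4 ± 1.85 FPKM in buds (SD of 7 genotype means). Of the other 4 receptor genes, Gh_A09G2213 and Gh_Sca199713G01 never exceeded 0.5 FPKM, and Gh_A11G2273 and Gh_D11G2580 were at 0 in some libraries of each tissue and were higher in ovule than in leaf in 4 of 7 genotypes each.

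The EIN3-like transcription factors are the class placed downstream of the receptors. By description, 5 of them were ETHYLENE-INSENSITIVE3-like 3 genes, whose part in ethylene signalling was not tested here. Of 10 genes, 8 were tested, and 0 were called in ovule relative to either leaf or buds. In limma, unadjusted p-values under 0.05 with the same fold limit also gave no call, since each difference from ovule stayed under the fold limit. The only call was the fall of Gh_D05G3878/Gh_D05G3883 in leaf relative to buds by 1.10 (SE 0.04, adjusted p = 3.59e-26), with 7.84, 11.02 and 16.5 FPKM in ovule, 6.85, 9.12 and 12.5 FPKM in leaf, and 16.9, 21.3 and 24.7 FPKM in flower buds. This locus joined an EIN3 family gene with the zinc finger gene SERRATE, which acts in microRNA processing, so its level cannot be assigned to EIN3. Gh_D08G0312, the EIN3 family gene with the next highest level, had 7.84, 11.8 and 36.9 FPKM in ovule, 4.27, 6.73 and 11.2 FPKM in leaf, and 9.14, 12.8 and 15.5 FPKM in buds. Gh_A05G0554 had medians of 3.18, 5.02 and 3.63 FPKM in ovule, leaf and buds. The class summed to 33.1 ± 6.86 FPKM in ovule, 26.2 ± 5.30 FPKM in leaf and 40.7 ± 1.81 FPKM in buds. These sums include Gh_D05G3878/Gh_D05G3883, so they cannot be assigned to EIN3-like genes alone.

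The ERFs, which bind the GCC box of target genes, formed the largest class, and few of them were expressed. Of 94 genes, 47 never exceeded 0.5 FPKM, 33 did so in 1 to 5 libraries, 11 in 6 to 31 libraries and only 3 in at least 32. The 3 were Gh_D08G1310 and Gh_A10G1483, each in all 63 libraries, and Gh_D01G0450 in 43. Of the 47 tested, 2 rose in ovule relative to leaf, 3 rose in ovule relative to buds, and 1 fell in leaf relative to buds.

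Gh_D08G1310, described as an ethylene-responsive element binding protein, had the largest rise in ovule of all 164 genes. It had 29.0, 55.8 and 81.9 FPKM in ovule, 1.76, 3.19 and 5.65 FPKM in leaf, and 1.72, 3.32 and 5.89 FPKM in flower buds. The lowest ovule library was far above the highest library of the other tissues, and the rise was 3.65 relative to leaf (SE 0.10, adjusted p = 6e-33) and 3.59 relative to buds (adjusted p = 4.24e-32). This gene made up 57.6% of the summed ERF level in ovule, which was 93.8 ± 25.3 FPKM, against 22.8 ± 6.64 FPKM in leaf and 38.4 ± 14.1 FPKM in buds. Gh_A10G1483, with the same description, had 5.89, 10.2 and 14.7 FPKM in ovule, 2.35, 5.02 and 10.6 FPKM in leaf, and 1.68, 2.49 and 4.26 FPKM in buds, and rose in ovule relative to buds by 1.66 (adjusted p = 5.92e-19).

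Uneven libraries affected the size of the other ERF calls. Gh_D10G1726, named here after its values were seen, rose in ovule by 1.16 relative to leaf and 1.28 relative to buds, with 0.425, 1.49 and 68.4 FPKM in ovule, and the highest of these was L replicate 3. Without L replicates 2 and 3 these differences were 0.93 (adjusted p = 8.19e-14), under the fold limit, and 1.05 (adjusted p = 4.32e-15), still called. It was at or under 0.5 FPKM in 2 ovule, 19 leaf and 20 bud libraries. Gh_D01G0450 (ERF4, a repressor in Arabidopsis) was listed at 0 in 6 ovule, 11 leaf and 3 bud libraries and exceeded 10 FPKM in 12 ovule, 6 leaf and 12 bud libraries, with maxima of 37.6, 48.8 and 94.6 FPKM. Its fall in leaf relative to buds was 1.93 (SE 0.64, adjusted p = 0.00709), and replicates of 1 genotype differed as widely as the tissues did.

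This unevenness was not confined to ERFs. In all, 19 of the 164 genes, 11 of them ERFs, were listed at 0 in some and above 3 FPKM in other libraries of the same tissue. The ACC oxidase Gh_Sca081609G01 was never at 0, but its leaf values were 0.766, 51.6 and 53.2 FPKM in H, 1.86, 1.34 and 72.6 FPKM in A, 67.2, 0.798 and 0.917 FPKM in B, and 3.83, 58.7 and 0.327 FPKM in C. All leaf libraries of M, L and D had 0.811 to 2.12 FPKM. It exceeded 10 FPKM in 8 ovule, 5 leaf and 16 bud libraries. The ERF Gh_A03G0066, also named after its values were seen, had 53.3 FPKM in 1 ovule library and 0 in the other 20.

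**Figure D3:**
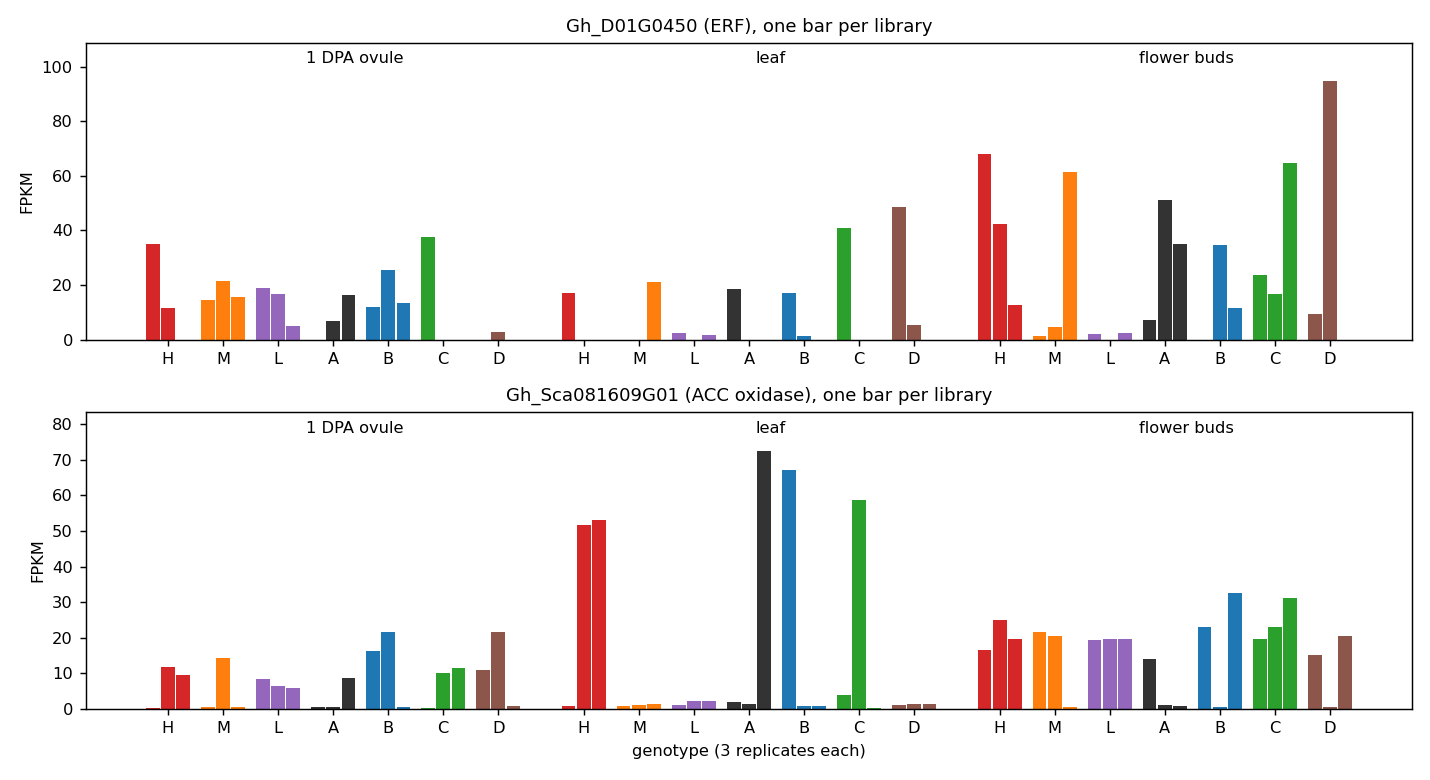
FPKM (y axis) of the ERF Gh_D01G0450 and the ACC oxidase Gh_Sca081609G01, 1 bar per library, for H, M, L, A, B, C and D with 3 replicates each (x axis) in 1 DPA ovule, leaf and flower buds. Replicates of 1 genotype and tissue often differ by far more than the tissues do, for example 0.766, 51.6 and 53.2 FPKM of Gh_Sca081609G01 in H leaf.

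The 5 other ethylene-named genes were 3 EGY-like genes and 2 genes for ethylene-regulated nuclear protein 2 (ERT2). EGY-like genes belong to a family of chloroplast membrane proteases named after a mutant deficient in ethylene-dependent gravitropism, and protease activity of these 3 was not tested. The 3 EGY-like genes were all higher in leaf. Gh_A01G0096 (EGY3) had 0.329, 0.638 and 0.987 FPKM in ovule, 2.95, 5.50 and 10.2 FPKM in leaf, and 0.240, 0.945 and 1.498 FPKM in flower buds. It fell in ovule relative to leaf by 2.05 and rose in leaf relative to buds by 1.83. The EGY2 genes Gh_A05G3645 and Gh_D04G0647 fell in ovule relative to leaf by 1.60 and 1.71 and rose in leaf relative to buds by 1.39 and 1.33, with no overlap between leaf and the other tissues. The ERT2 genes Gh_A06G1064 and Gh_D06G1297 had a median of 0 in each tissue and were not called.

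Among the 10 methylene-named genes, which belong to folate or amino acid metabolism and not to the ethylene pathway, were the 3 highest means of the list. The 4 methylenetetrahydrofolate reductase 2 genes make the folate used to regenerate methionine, and none was called. The highest of them, Gh_A09G1841, had 21.4, 35.4 and 43.7 FPKM in ovule, 30.6, 38.7 and 42.2 FPKM in leaf, and 45.2, 53.8 and 57.0 FPKM in buds. The 6 genes of the family carried a proline dehydrogenase annotation. In this group, Gh_D11G1706 had 67.1, 92.1 and 112 FPKM in ovule, 5.42, 7.25 and 9.87 FPKM in leaf, and 44.8, 71.7 and 89.6 FPKM in buds. It rose in ovule relative to leaf by 3.45 and fell in leaf relative to buds by 3.11. Its counterpart Gh_A11G1551 rose by 3.04 and fell by 2.77 in the same comparisons, and Gh_D07G1777 fell relative to buds by 1.34 in ovule and by 1.27 in leaf.

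Genes of the pathway whose descriptions lack the word ethylene were counted in the same comparisons. Of 16 such signalling genes, 14 were EIN3-binding F box protein 1 (EBF1) genes, whose product marks EIN3 for degradation, and 2 were RAN1 genes, whose product delivers copper to the receptors. Of the 15 tested, 0 rose and 1 fell in ovule relative to leaf, 0 rose and 2 fell in ovule relative to buds, and 0 rose and 3 fell in leaf relative to buds. The EBF1 gene Gh_D05G0562 had 0.339, 2.80 and 4.73 FPKM in ovule, 6.73, 9.24 and 14.1 FPKM in leaf, and 10.01, 18.0 and 29.1 FPKM in buds, and fell in ovule by 1.52 relative to leaf and by 2.44 relative to buds. Of 6 genes of S-adenosylmethionine supply, 1 was called, the methionine adenosyltransferase 3 gene Gh_D04G1064, which fell in leaf relative to buds by 1.10. Among 862 other genes with ethylene in their gene ontology terms, 656 were tested, and 47 rose and 58 fell in ovule relative to leaf, 19 rose and 38 fell in ovule relative to buds, and 36 rose and 34 fell in leaf relative to buds. In ovule relative to leaf this was 7.16% and 8.84% of those tested, against 9.84% and 9.08% of all genes.

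The next question was whether hybrids differed from their parents, or the paternal inbreds from A, within a tissue. In leaf, 83 of the genes were tested. Between hybrids and their own parents 0 were called by limma, where 1.46% of all 60031 genes tested were, and 0 passed the fold limit at an unadjusted p under 0.05 (5.12% of all genes). Between the paternal inbreds and A 0 were called (1.76% of all genes, and 0 unadjusted), against the mid-parent value 0 (0.415%, and 1 unadjusted, against 2.3% of all genes), and beyond both parents 0 (0.145%, and 0 unadjusted).

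Over all 7 genotypes, the F-test of limma, counted where the highest and lowest genotype means also lay more than 1 apart, called 2 genes in leaf, where it called 3.03% of all genes (6.2% at an unadjusted p). The EIN3 family gene Gh_D08G0312 (adjusted p = 0.000161) had 4.77, 5.84 and 5.80 FPKM in H and 11.1, 10.4 and 11.2 FPKM in L, against 9.46, 6.73 and 8.30 FPKM in A and 4.57, 4.42 and 4.27 FPKM in B. The highest and lowest genotype means, those of L and B, were 1.14 apart, and no pair of hybrid and parent differed by more than 1. The ACC oxidase Gh_A05G1492 (adjusted p = 0.0045) had 5.42, 6.76 and 7.42 FPKM in B and 2.60, 2.18 and 2.06 FPKM in C, and its genotype means spanned 1.20.

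In flower buds, 83 genes were tested and 0 passed both limits in any genotype comparison by limma. The methylenetetrahydrofolate reductase 2 gene Gh_A10G1135 had an adjusted F-test p of 0.039, with genotype means 0.44 apart. The share of all 63805 genes called was 1.76% over all genotypes, 1.07% between hybrids and their own parents, 1.35% between the paternal inbreds and A, 0.317% against the mid-parent value and 0.122% beyond both parents. At an unadjusted p under 0.05, 3, 5, 2, 3 and 1 genes passed in these comparisons, against 3.88%, 4.78%, 3.77%, 2.06% and 0.732% of all genes.

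In ovule, 86 genes were tested and genotype differences were more frequent. The F-test called 7 genes (7.35% of all 59372 genes), 9 were called between hybrids and their own parents (7.98%), 1 between a paternal inbred and A (2.66%), 8 against the mid-parent value (4.84%) and 3 beyond both parents (2.53%). Of the 9, 8 were called in L (6.73%): 4 rose relative to A (2.56% of all genes), and 6 rose and 1 fell relative to D (3.13% and 2.06%). Against the mid-parent value, 7 rose and 1 fell in L (2.97% and 1.46%). The median difference of the 86 genes was 0.13 for L minus A, against -0.00 over all genes, and 0.07 for L minus D, against 0.01. Without L replicates 2 and 3, all 4 medians were 0, with the same genes tested, and the F-test again called 7 genes, of which 4 were among the first 7. Without L replicates 2 and 3, L is left with 1 ovule library, whose spread is taken from the other groups, and none of those 8 was called in L, though some differences stayed large, as given with each gene. The calls were then Gh_D08G1310 in H and the ERF Gh_D05G3616 (named after its values were seen), which had 1.36, 0 and 1.22 FPKM in L and was listed at 0 in every ovule library of the other genotypes, so that its call then rests on 1 library of L. Leaving out replicate 1, 2 or 3 of L alone gave 14, 5 and 4 calls between hybrids and their own parents. The shares of all genes called in these refits are not given, so the changes cannot be read as particular to ethylene genes.

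Gh_D08G1310, the leading ERF of ovule, differed most clearly among genotypes (F-test, adjusted p = 1.2e-05). It had 32.7, 33.8 and 35.4 FPKM in H, 65.4, 55.5 and 55.8 FPKM in M and 44.3, 29.0 and 32.3 FPKM in L, against 44.2, 41.7 and 38.8 FPKM in A, 65.3, 81.9 and 80.4 FPKM in B, 74.9, 65.5 and 68.1 FPKM in C and 58.4, 68.1 and 62.9 FPKM in D. All libraries of H lay below all those of its parents, and all libraries of the paternal inbreds lay above those of A. It fell in H relative to B by 1.13 (SE 0.13, adjusted p = 4.1e-05), the only call of a hybrid other than L (0.881% of all genes fell in this comparison). H minus A was -0.28 (adjusted p = 0.46). The differences of 0.85 for B minus A, 0.73 for C minus A and 0.59 for D minus A, and of -0.84 for L minus D, stayed under the fold limit.

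The ACC oxidase locus Gh_D07G0841/Gh_D07G0842 was high in D. It had 2.86, 1.86 and 1.41 FPKM in L, against 2.69, 2.32 and 2.28 FPKM in A and 12.8, 17.9 and 10.2 FPKM in D. No library of L or A overlapped with D. The locus fell in L relative to D by 2.26 (SE 0.40, adjusted p = 0.00149) and rose in D relative to A by 2.06 (SE 0.40, adjusted p = 0.00469), the only call of a paternal inbred against A (0.645% of all genes rose in this comparison). The paternal inbreds were not tested against each other. Without L replicates 2 and 3, L minus D was -1.89 (adjusted p = 0.125), while D minus A was still called (adjusted p = 0.00577). In the other genotypes the values were 2.51, 2.32 and 2.28 FPKM in H, 2.68, 3.23 and 9.26 FPKM in M, 5.66, 14.2 and 5.64 FPKM in B, and 8.89, 3.22 and 3.69 FPKM in C.

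The remaining calls in ovule were rises in L. The ACC oxidase Gh_A06G1341, the bud gene described above, had 5.42, 12.1 and 8.58 FPKM in L, against 3.43, 3.17 and 4.86 FPKM in A and 1.97, 1.10 and 1.44 FPKM in D. All libraries of L were above those of both parents. The rise was 1.91 relative to D (SE 0.32, adjusted p = 0.00111) and 1.44 relative to the mid-parent value. Without replicates 2 and 3, the difference from D was 1.37 (adjusted p = 0.133) and that from the mid-parent value was 0.90 (adjusted p = 0.481).

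In 3 genes L rose above both parents. The ACC oxidase Gh_A07G0773 had 4.06, 89.7 and 74.3 FPKM in L, against 2.65, 1.76 and 2.26 FPKM in A and 2.57, 1.57 and 1.24 FPKM in D, and rose by 3.35 relative to A (SE 0.74, adjusted p = 0.00988) and by 3.57 relative to D (adjusted p = 0.00428). The ERF5 gene Gh_D03G1591 had 0, 47.8 and 36.9 FPKM in L and was listed at 0 in every ovule library of the other genotypes, so no fold is given. It passed the filter of 0.5 FPKM in ovule only through replicates 2 and 3 of L, so its calls add no support beyond these values. The EIN3 family gene Gh_D08G0312 had 11.8, 36.5 and 36.9 FPKM in L, against 8.72, 10.4 and 9.36 FPKM in A and 12.97, 11.8 and 9.97 FPKM in D, and rose by 1.33 relative to A (adjusted p = 0.0122) and by 1.07 relative to D (adjusted p = 0.0222). In each of the 3, replicate 1 of L lay near or within the range of its parents and replicates 2 and 3 made the difference. Without these, L minus A was 0.66 (adjusted p = 0.761) for Gh_A07G0773 and 0.28 for Gh_D08G0312, and none of the 3 was called.

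4 further genes rose in L. The ACC synthase 10 gene Gh_D08G1888 had 1.64, 5.67 and 5.68 FPKM in L, against 1.10, 1.03 and 1.13 FPKM in D (1.23, adjusted p = 0.0454). The receptor Gh_D11G2580 had 0, 3.53 and 4.55 FPKM in L, against 0.103, 0 and 0 FPKM in D (1.503, adjusted p = 0.0397). The EIN3-like gene Gh_D06G1178 had 1.05, 2.00 and 2.91 FPKM in L, against 0.215, 0.454 and 0 FPKM in A (1.26, adjusted p = 0.0391). The differences of 1.41 for H minus A (adjusted p = 0.125) and 1.37 for M minus A (adjusted p = 0.13) in this gene were as large but did not pass. The ACC oxidase Gh_A07G0774, next to Gh_A07G0773, had 0, 7.90 and 5.13 FPKM in L and rose relative to the mid-parent value by 1.89 (adjusted p = 0.0366). Each had its lowest value of L in replicate 1. Without replicates 2 and 3, the differences were 0.34 for Gh_D08G1888, -0.047 for Gh_D11G2580, 0.76 for Gh_D06G1178 and -0.036 for Gh_A07G0774, and none was called.

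By class, the ERFs summed to 77.6, 167 and 162 FPKM in replicates 1, 2 and 3 of L, against 52.8 to 132 FPKM in the 19 ovule libraries other than replicates 2 and 3. Single genes held this excess: without Gh_D03G1591, Gh_A03G0066 (53.3 FPKM in replicate 2) and Gh_D10G1726 (68.4 FPKM in replicate 3), chosen after their values were seen, the ERF sums were 76.4, 64.96 and 56.7 FPKM, against 52.4 to 131 FPKM. The ACC oxidases summed to 90.2, 167 and 146 FPKM, against 67.0 to 159 FPKM. Of these L sums, the single gene Gh_A07G0773 held 4.06, 89.7 and 74.3 FPKM. The EIN3-like genes summed to 33.7, 51.8 and 54.0 FPKM, against 26.0 to 38.2 FPKM. Of these L sums, the single gene Gh_D08G0312 held 11.8, 36.5 and 36.9 FPKM. Neither sum therefore shows a rise across its class. The receptors summed to 74.6, 99.0 and 94.2 FPKM, against 66.04 to 94.7 FPKM. The sum of the anther and pollen list was also high in the same L libraries, and its part in these results was not tested. Of its 75 genes, 17 were listed at 0 in both of these libraries and 6 in every one of the other 19. These counts cover unlike numbers of libraries and cannot be compared.

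The F-test in ovule also called the ACC oxidase Gh_A08G0460 (adjusted p = 0.00466) and the ACC synthase 6 gene Gh_D12G2746 (adjusted p = 0.0142), neither of which passed both limits between a hybrid and its parent or between a paternal inbred and A. Without L replicates 2 and 3, Gh_D12G2746 was still called (adjusted p = 0.00216), while the genotype means of Gh_A08G0460 lay 0.96 apart, under the limit (adjusted p = 0.0413). The libraries of A and replicates 1 and 2 of B formed a group of lower base quality in the study's sequencing summary. Since all A libraries lie in it, the group and A can be told apart only through B. With this group as a covariate the calls of L relative to A were lost (Gh_A07G0773 3.46, adjusted p = 0.243, and Gh_D08G0312 1.94, adjusted p = 0.135), as was D relative to A of Gh_D07G0841/Gh_D07G0842 (2.66, adjusted p = 0.105), while Gh_D08G1310 still fell in H relative to B, by 1.22 (adjusted p = 0.00211).

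**Figure D4:**
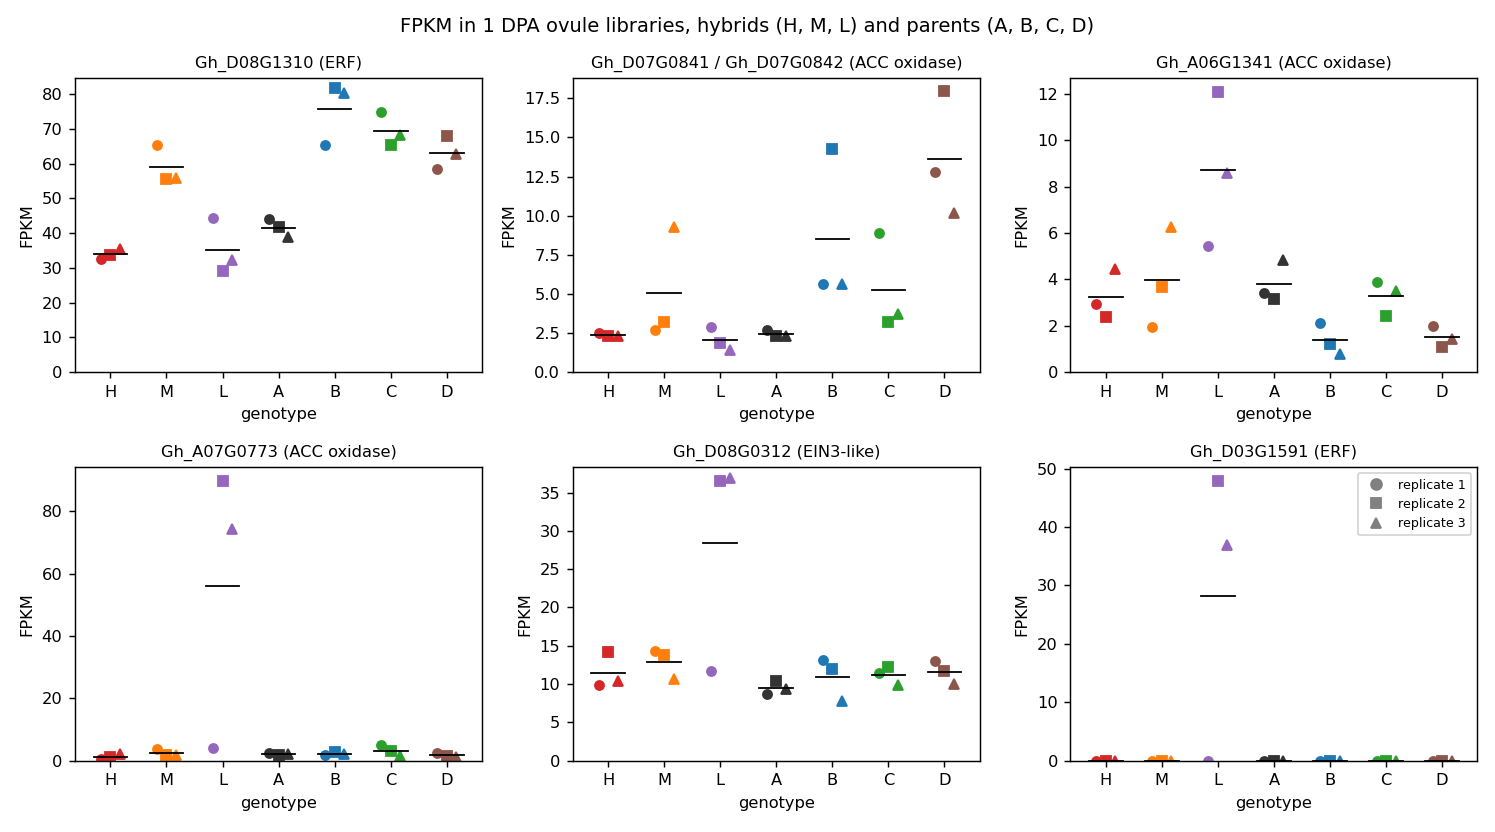
FPKM (y axis) of 6 ethylene genes in 1 DPA ovule, for hybrids H, M and L and inbreds A, B, C and D (x axis), with 1 symbol per replicate and a line at the mean of 3. Gh_D08G1310 is lower in H (32.7 to 35.4 FPKM) than in B (65.3 to 81.9 FPKM), Gh_D07G0841/Gh_D07G0842 is highest in D, and in the bottom row replicates 2 and 3 of L lie far above all other libraries.

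In the lists without the word ethylene, 0 of the signalling genes and 1 of the S-adenosylmethionine genes was called between hybrids and their own parents in ovule, and 0 of both in leaf and buds. Of the signalling genes, 0 were called between the paternal inbreds and A in any tissue. Of the other genes with ethylene in their ontology terms, 27 rose and 10 fell in hybrids relative to their own parents among 508 tested in ovule, 5 rose and 2 fell among 500 in leaf, and 2 rose and 1 fell among 550 in buds. This was 7.28% in ovule, 1.4% in leaf and 0.545% in buds, against 7.98%, 1.46% and 1.07% of all genes.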

How the data were processed

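RNA-seq was done on 63 cotton libraries (7 genotypes, 3 tissues, 3 replicates). The authors trimmed reads with Cutadapt, aligned them with HISAT to an upland cotton genome (build name not given in the sources used here), assembled and merged transcripts with StringTie, and deposited FPKM per gene from StringTie and Ballgown. Another 21 FPKM columns matched no sample and were not used. FPKM carries no read count, so depth is unknown. The total FPKM per library was 410556 to 449250 in leaf, 413789 to 454309 in buds and 418915 to 477980 in ovule.

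Genes above 0.5 FPKM in at least 1 library of a fit were tested on log2(FPKM + 1) with limma 3.58.1 (R 4.3.3, trended and robust variance), a moderated test that was tested on simulated data first. Tissue comparisons used 63 libraries in 21 groups and genotype comparisons the 21 libraries of a tissue. Python 3.11.15 with pandas 2.3.3 and matplotlib 3.10.9 was used for summaries. No gene name matched the RefSeq table, so names are the table's.

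Members and lists were chosen with earlier results of these data known. Genes named were the 10 with the highest mean, the 5 largest called rises and 5 falls per tissue comparison, the 5 smallest F-test p per tissue, the largest call per genotype comparison, those beyond both parents, and members of the enzyme, receptor and EIN3-like classes. Alternatives were a pseudocount of 0.1, no filter or 1 FPKM in all 3 libraries of a group, unadjusted p-values, quantile scaling, a replicate block, a base-quality covariate, fits of the compared groups alone, and leaving out libraries. The comparison of genotype differences between tissues without L replicates 2 and 3 was added after seeing the data.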

Additional observations from a re-analysis of the deposited data

Results flagged for a closer look

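Genotype differences in ovule were compared with the same differences in leaf and in flower buds, as a difference of log2 differences tested in the fit of all 63 libraries (limma, adjusted p 0.00131 to 0.0322 for those given here). Adjusted p under 0.05 was reached by 2.51% of all 68947 genes for L minus A between ovule and leaf, 7.26% between ovule and buds, 5.58% and 5.88% for L minus D, and 1.27% and 0.885% for D minus A. Of the 105 ethylene genes tested, 3.81% and 7.62% reached it for L minus A, 6.67% and 8.57% for L minus D, and 0.952% in both for D minus A. The fall of Gh_D08G1310 in H relative to B in ovule did not differ beyond the limit from H minus B in leaf (-0.96, adjusted p = 0.334) or buds (-1.15, adjusted p = 0.119).

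Only differences already called in ovule are given by gene here. They were chosen on the same ovule libraries, which favours a larger difference in ovule. Among these, L exceeded a parent by more in ovule than in leaf, buds or both for several genes. For the ACC oxidase Gh_A07G0773, L minus A was larger in ovule by 3.44 than in leaf and by 3.63 than in buds, and L minus D by 4.39 and 4.08. For the ERF5 gene Gh_D03G1591, L minus A was larger by 3.85 and 3.62, and L minus D by 3.95 and 3.62, on the log2(FPKM + 1) scale. The gene was listed at 0 in all bud libraries and in all ovule libraries outside L, so these values are no folds. Their ovule part rests on replicates 2 and 3 of L alone. For the EIN3 family gene Gh_D08G0312, L minus A exceeded that in buds by 1.07 and L minus D by 1.15, while the differences from leaf of 0.94 (adjusted p = 0.0872) and 0.38 (adjusted p = 0.567) did not pass. For the ACC oxidase Gh_A06G1341, L minus D was larger by 2.00 than in leaf and by 1.84 than in buds, and for the ACC synthase 10 gene Gh_D08G1888 by 1.56 than in leaf, with 1.22 from buds not passing (adjusted p = 0.0535). Those of Gh_D06G1178 and Gh_D11G2580 did not pass against either tissue (adjusted p 0.171 to 0.953).

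The ACC oxidase locus Gh_D07G0841/Gh_D07G0842 went the other way, with differences of -2.05 from leaf and -2.23 from buds for L minus D. For D minus A they were 2.00 and 2.27. All A ovule libraries lie in the group of lower base quality, which was not a covariate in this fit. With that covariate the call of D minus A in ovule was lost, as given above. Without L replicates 2 and 3 in ovule, which leaves 1 library of L there with its spread taken from the other groups, none of the differences of L passed (the smallest adjusted p was 0.202). They were then -1.68 and -1.86 for Gh_D07G0841/Gh_D07G0842 and 1.47 and 1.30 for Gh_A06G1341. Those of D minus A passed (adjusted p = 0.0319 and 0.0139).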

How the results depend on the processing

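Over 31 settings in ovule, the fall of Gh_D08G1310 in H relative to B was called each time. Tissue counts ranged over all settings from 13 to 21 rises and 7 to 8 falls in ovule relative to leaf, 8 rises and 3 to 6 falls in ovule relative to buds, and 6 to 8 rises and 10 to 16 falls in leaf relative to buds. The 6 falls in ovule relative to buds came with a pseudocount of 0.1, which also gave 1 leaf gene between hybrids and parents, 1 in leaf and 2 in ovule between a paternal inbred and A (between inbreds from here on). The falls nearest the limit in leaf relative to buds were not called under quantile scaling (Gh_D12G2746 and Gh_D05G3878/Gh_D05G3883), which called 1 gene over all genotypes in buds. Unadjusted p gave 1 gene against the mid-parent value in leaf, 3, 5, 2, 3 and 1 in buds over all genotypes, against parents, between inbreds, against the mid-parent value and beyond both parents, and 2 between inbreds and 6 beyond both parents in ovule. Without a filter 5 genes were called in L ovule. A filter of 1 FPKM gave 1 over all genotypes in buds and 5 against the mid-parent value in ovule. The base-quality covariate gave 2 between inbreds, 5 against the mid-parent value and 1 beyond both parents in ovule. Fits of the compared groups alone gave 3 against parents, 2 against the mid-parent value, 0 beyond both parents and 1 in L. Without L replicates 2 and 3 there were 2 against parents, 2 between inbreds, 1 against the mid-parent value, 1 beyond both parents and 1 in L, and the signs turned for Gh_D11G2580 (L minus D -0.047, against the mid-parent value -0.11) and Gh_A07G0774 (-0.036). The cause of these shifts was not tested. Shares of all genes are not given for the refits here and below, so the shifts cannot be read as particular to ethylene genes.

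Leaving out 1 library at a time gave, in ovule, 6 to 14 genes over all genotypes, 4 to 14 against parents, 1 to 2 between inbreds, 2 to 14 against the mid-parent value, 0 to 9 beyond both parents and 3 to 14 in L. The count against parents was 14 without L replicate 1, 5 without L replicate 2 and 4 without L replicate 3. In leaf it gave 2 to 3, 0 to 1, 0 to 1, 0 and 0, and in buds 0 to 2, 0 to 1, 0, 0 to 1 and 0 to 1. Not every pair of same-numbered libraries deviated together (correlations of -0.10 to 0.23 in leaf, -0.28 to 0.51 in buds and -0.06 to 0.08 in ovule, and 9, 13 and 10 of 21 libraries nearest their own number), so numbers were not treated as pairs. The replicate block gave 2 genes over all genotypes and 1 against parents in buds, and 7 against parents in ovule. Of 1746 values of single genes, 1614 stayed called or stayed uncalled, 125 lost the call, 4 gained it and 3 changed sign. A change of sign was counted only where at least 1 of the compared values was called. Values uncalled in both settings count as kept whatever their sign. FPKM gives no depth, so the counting error of genes with low FPKM could not be given.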
